A study of Mus musculus with 4 samples.

Results

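The Bcl2 family genes that decide between survival and death at the mitochondrion, without the classical p53 targets of the family, were followed in RNA-seq of cultured muscle stem cells (MuSC, satellite cells). The members were 10 genes taken by name, namely Bcl2, Bcl2l1, Bcl2l2, Mcl1, Bak1, Bok, Bid, Bad, Bcl2l11 and Bmf, and all 10 had a value among the 20065 genes of the series. RNA of 2 control and 2 Prmt5sKO cultures of adult mice on a C57BL/6 background was sequenced on an Ion Torrent instrument after removal of ribosomal RNA, to ask which genes depend on Prmt5, an enzyme that dimethylates arginine residues of histones and other proteins. Control cells were Pax7CreERT2/Prmt5+/loxP and Prmt5sKO cells were Pax7CreERT2/Prmt5loxP/loxP, so that both groups carried the tamoxifen-inducible Cre under control of Pax7, both had been exposed to tamoxifen (TAM), and control cells also held 1 floxed Prmt5 allele. The labels do not give the route of TAM, but the paper states that the sequenced MuSC were treated with 4-hydroxytamoxifen (4-OH). Its methods describe this exposure for cultured cells, several days before they were analysed. Cells came from limb and trunk muscles. The labels do not say whether the cultures of a group came from separate animals. Sex-linked genes, given below, differed between the 2 cultures of each group as between female and male cells. The 2 cultures of a group therefore did not come from the same animal, and how many animals each held is not given. The p-values measure the spread between these cultures only.

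Members of this family meet at the outer membrane of the mitochondrion. The effectors Bak1 and Bok can open the membrane and release cytochrome c, which starts the caspases. The survival proteins Bcl2, Bcl2l1 (Bcl-xL), Bcl2l2 (Bcl-w) and Mcl1 bind and restrain effectors such as Bak1. The BH3-only proteins Bid, Bad, Bcl2l11 (Bim) and Bmf carry death signals by occupying the survival proteins or by engaging effectors directly. Much of this control acts on the proteins, through phosphorylation of Bad, cleavage of Bid and rapid turnover of Mcl1, none of which is seen in RNA. Cleavage of Bid links the death receptors to the mitochondrion.

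The BH3 domain, the short helix by which these proteins bind each other, is shared by members of all 3 roles. The coding stretch that matches its core is shown for each gene, since it is the feature that joins the 10 members, which were chosen by name and not by sequence. The search ran on the coding strand of the longest complete coding sequence of each gene in GENCODE release M21 (GRCm38), for a leucine or methionine codon, 3 codons of any kind, a glycine, alanine or serine codon and an aspartate codon. These 6 codons stand in capitals, with 2 codons on either side in lower case. All 10 members held exactly 1 match, against 39.0% of 21526 coding genes with at least 1, so a match alone does not mark a BH3 domain. Bcl2l2, Bad and Bmf match only through the wider codon choices of this pattern, so the 10 matches are not a test of the domain.
Bcl2 (chr1:106712578-106712607, minus strand, exon 1): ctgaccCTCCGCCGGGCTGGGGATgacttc
Bcl2l1 (chr2:152829700-152829729, minus strand, exon 2): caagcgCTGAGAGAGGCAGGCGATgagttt
Bcl2l2 (chr14:54884511-54884540, plus strand, exon 3): caagccATGCGGGCTGCTGGAGACgagttt
Mcl1 (chr3:95659430-95659459, plus strand, exon 1): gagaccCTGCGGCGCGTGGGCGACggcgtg
Bak1 (chr17:27022534-27022563, minus strand, exon 4): cggcagCTTGCTCTCATCGGAGATgatatt
Bok (chr1:93686651-93689167, plus strand, across exons 2 and 3): acagtgCTGCTGCGCTTGGGAGATgagctg
Bid (chr6:120897292-120897321, minus strand, exon 4): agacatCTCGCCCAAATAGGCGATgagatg
Bad (chr19:6950786-6950815, plus strand, exon 3): cgtgagCTCCGAAGGATGAGCGATgagttt
Bcl2l11 (chr2:128147144-128147173, plus strand, exon 3): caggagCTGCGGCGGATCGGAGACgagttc
Bmf (chr2:118545103-118545132, minus strand, exon 4): agaaagCTTCAGTGTATTGCAGACcagttc
The narrower form of leucine, 3 codons, glycine and aspartate was found in 7 members and in 13.3% of coding genes. Bcl2l2 has a methionine codon in the first place, and Bad and Bmf have a serine and an alanine codon in the fifth. The stretch of Bok is interrupted by an intron. All stretches lie in coding exons.

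The deposited group means resolved into whole counts per library for 100% of genes, and the libraries, which carry no replicate number, are named by depth. Where 2 values are given for a group, its deeper library stands first. Counts in genes summed to between 13240754 and 20047430 per library. Prmt5 was at 2273 and 2906 normalised counts in control and at 244 and 202 in Prmt5sKO, where a normalised count is a count divided by the scaled depth of its library. Cell identity was checked on marker genes. All 8 satellite cell and myoblast markers had values, with sums of 52982 and 45022 normalised counts in control and 46250 and 76597 in Prmt5sKO libraries. Sums for the fibro-adipogenic (5 genes), endothelial (4), immune (3 of 6 genes with a value) and Schwann (4) markers lay between 28.2 and 223 in every library. The 2 libraries of each group differed in sex-linked genes. Xist, made from the inactive X chromosome of female cells, was at 8668 and 23.3 normalised counts in control and at 8.15 and 5655 in Prmt5sKO cells, and the 4 Y-linked genes Ddx3y, Eif2s3y, Kdm5d and Uty were at most 1.13 where Xist was high and at least 447 where it was low. Each group thus held 1 library with the pattern of female and 1 with that of male cells. The spread within a group therefore includes a difference in animal and in sex. One library stood apart. The 16 muscle differentiation markers summed to 18063 and 11464 in control and to 23618 and 303869 in Prmt5sKO, and all 16 were higher in the shallower of the Prmt5sKO libraries. The part of this difference in the results on the family was not tested, and values with a library left out are given beside them. In bulk RNA, fewer cells of a type and less RNA per cell cannot be told apart.

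On the scale of normalised counts per kilobase of exon, which allows genes to be compared with each other, Mcl1 had the highest mean of the members in both groups, a rank that depended on the length used. It stood at 568 ± 19.4 in control and 686 ± 259 in Prmt5sKO cells (SD, n = 2 each). In control cells Bok followed at 551 ± 214, with Bcl2l1 at 343 ± 33.7, Bak1 at 318 ± 30.5 and Bid at 236 ± 15.9 (SD, n = 2 each). Bad at 115 ± 32.9 and Bcl2l2 at 103 ± 22.0 per kilobase formed a middle tier (SD, n = 2 each). Bcl2l11 at 23.6 ± 6.55, Bcl2 at 18.7 ± 0.61 and Bmf at 3.91 ± 2.38 formed the lowest (SD, n = 2 each). The order therefore spanned 145-fold between Mcl1 and Bmf in control. Neighbouring levels whose libraries overlapped in control were Mcl1 and Bok, Bcl2l1 and Bak1, Bad and Bcl2l2, and Bcl2l11 and Bcl2. Bcl2, the founding member, was low beside Mcl1 and Bcl2l1 in all 4 libraries.

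In Prmt5sKO cells the per-kilobase order differed in 2 places. Bok, at 341 ± 46.9, stood behind Bcl2l1 at 439 ± 28.3 and Bak1 at 373 ± 18.3 (SD, n = 2 each), and its libraries overlapped with those of Bak1. Bmf at 12.9 ± 0.47 and Bcl2 at 12.2 ± 0.90 per kilobase exchanged the last places (SD, n = 2 each), again with overlapping libraries.

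With the length of the longest transcript in place of all exons, an alternative added after the data were seen, the top of the order changed. Bok then had the highest mean in control at 691 ± 268, ahead of Bcl2l1 at 612 ± 60.3 and Mcl1 at 568 ± 19.4 (SD, n = 2 each). In Prmt5sKO cells Bcl2l1 at 783 ± 50.6 was ahead of Mcl1 at 686 ± 259 and Bok at 428 ± 58.8 (SD, n = 2 each). Bok then stood ahead of Bak1, and Bcl2 at 15.5 ± 1.15 ahead of Bmf at 14.6 ± 0.53 in Prmt5sKO cells (SD, n = 2 each), so neither exchange with those genes held under this length. Which of Mcl1, Bok and Bcl2l1 led was therefore not settled, while Bcl2l11, Bcl2 and Bmf were the lowest under either length.

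**Figure D1:**
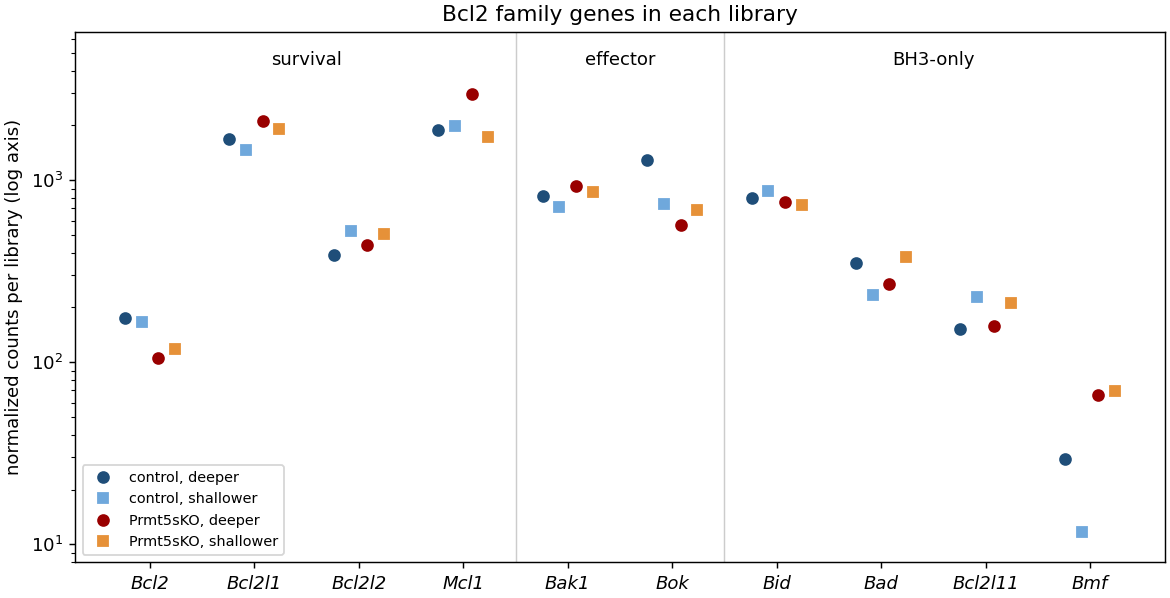
Normalised counts (log axis) of the 10 Bcl2 family genes, ordered by role, with 1 point for each of the 4 libraries. Bcl2, Bok and Bid lay lower and Bcl2l1, Bak1 and Bmf higher in both Prmt5sKO libraries, and Mcl1 was highest in the deeper Prmt5sKO library at 2972 and lowest in the shallower one at 1718.

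None of the 10 members passed the thresholds of the study, 0.05 for the adjusted p and 2-fold for the change. The test was limma-voom with Benjamini-Hochberg adjustment over 16212 genes. No other gene passed either, so that the share called over all genes was 0.0%. The study itself used DESeq2 and reported genes up- and downregulated at an adjusted p under 0.05. The 0.0% therefore describes the limma-voom test and does not mean that no gene changed. With libraries paired by sex as a block (the crossed pairing, added after the data were seen), 346 genes (2.13%) were called, 0 of them members. At an unadjusted p under 0.05, 1 of the 10 passed, against 13.0% of all genes tested, and limma-trend also gave 1 member and 0 called genes. Under the crossed block 2 members, Bmf and Bok, passed an unadjusted p under 0.05, against 19.5% of all genes. In 6 of the 10 members both Prmt5sKO libraries lay on 1 side of both control libraries, 3 above and 3 below, against 48.8% of all genes (25.2% above and 23.6% below). The shares without the block and under the crossed block are near the background. The median log2 fold change, Prmt5sKO over control, was 0.09 for the 10 members and 0.02 for all genes, and the median size of the change regardless of sign was 0.23 and 0.45. The median of the members was -0.066 without the shallower Prmt5sKO library, -0.0052 without the deeper control library and 0.20 without the shallower control library, so its sign rests on single libraries. For 7 members the 95% interval of the log2 fold change lay within 2-fold in either direction, and for Bcl2, Bok and Bmf it reached past 2-fold.

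**Figure D2:**
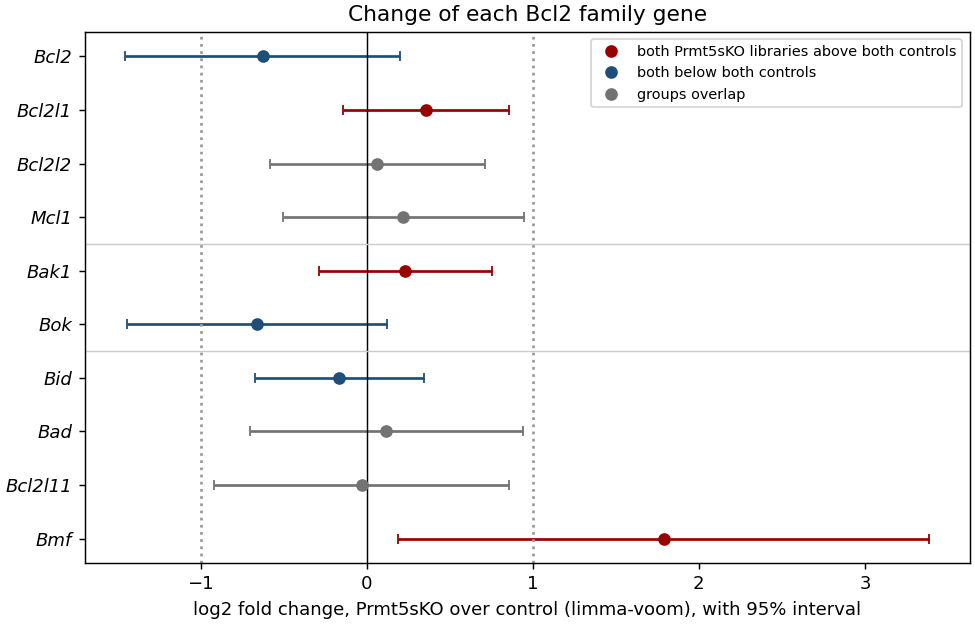
Log2 fold change of each member, Prmt5sKO over control, from limma-voom with its 95% interval; dotted lines mark 2-fold and colours say whether the 2 libraries of each group overlap. The interval of Bmf (0.19 to 3.39) alone leaves out 0, and the intervals are not adjusted for the number of genes tested.

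Among the survival genes, Bcl2 (ENSMUSG00000057329, chromosome 1, 106538178 to 106714274, GRCm38) had 175 and 167 normalised counts in control and 106 and 118 in Prmt5sKO cells. All values of Prmt5sKO were below those of control, and the libraries within each group were close. Its log2 fold change was -0.63 ± 0.34 (SE), with a 95% interval from -1.45 to 0.20 and a limma-voom adjusted p of 0.468, and with 1 library left out in turn it lay between -0.69 and -0.54.

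Bcl2l1 (ENSMUSG00000007659, chromosome 2, 152780668 to 152831728) makes Bcl-xL and, by splicing, a shorter form that promotes death, and counts per gene do not separate the forms. It had 1680 and 1462 normalised counts in control and 2103 and 1920 in Prmt5sKO libraries. The groups did not overlap, the log2 fold change was 0.36 ± 0.20 (SE), with a 95% interval from -0.14 to 0.85 and a limma-voom adjusted p of 0.484, and it lay between 0.26 and 0.45 with 1 library left out. A 2-fold change of Bcl2l1 in either direction is thus outside the interval.

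Mcl1 (ENSMUSG00000038612, chromosome 3, 95658788 to 95663176), the short-lived survival protein, had 1893 and 1987 normalised counts in control and 2972 and 1718 in Prmt5sKO cells. The Prmt5sKO libraries lay on either side of the controls, 1.73-fold apart from each other. The log2 fold change was 0.22 ± 0.30 (SE), with a 95% interval from -0.51 to 0.95 and a limma-voom adjusted p of 0.762. Leaving out the shallower Prmt5sKO library gave 0.62 (unadjusted p in limma-voom 0.0275, adjusted p 0.245) and leaving out the deeper one gave -0.17, so its direction rests on which of them is kept. Between the Prmt5sKO libraries, the one with fewer Mcl1 counts had the higher sum of muscle differentiation markers.

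Bcl2l2 (ENSMUSG00000089682, chromosome 14, 54883377 to 54888234) encodes Bcl-w and had 389 and 528 normalised counts in control and 441 and 507 in Prmt5sKO libraries. Both Prmt5sKO values lay between the control values, and the log2 fold change was 0.06 ± 0.27 (SE), with a 95% interval from -0.58 to 0.71 and a limma-voom adjusted p of 0.933. It was -0.03 without the shallower Prmt5sKO library. A read-through gene, Gm20521, shares 13.3% of its exonic bases, and reads there cannot be assigned to either.

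Of the 2 effectors, Bak1 (ENSMUSG00000057789, chromosome 17, 27019810 to 27029009) had 817 and 713 normalised counts in control and 929 and 867 in Prmt5sKO libraries. The groups did not overlap but were close, and the log2 fold change was 0.23 ± 0.21 (SE), with a 95% interval from -0.29 to 0.75 and a limma-voom adjusted p of 0.653. With 1 library left out in turn it lay between 0.14 and 0.32. Ggnbp1 on the opposite strand shares 18.2% of the exonic bases of Bak1 and had at most 83.5 normalised counts.

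Bok (ENSMUSG00000026278, chromosome 1, 93685660 to 93695764), an effector that does not need the BH3-only proteins in the way that Bak1 does, had 1293 and 737 normalised counts in control and 567 and 689 in Prmt5sKO libraries. Both Prmt5sKO values were lower, the nearer by a small margin, and the control libraries were 1.76-fold apart. The log2 fold change was -0.66 ± 0.32 (SE), with a 95% interval from -1.44 to 0.13 and a limma-voom adjusted p of 0.429. Leaving out the deeper control library gave -0.26 and leaving out the shallower one gave -1.05 (unadjusted p in limma-voom 0.0239), so its size rests on which control is kept.

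Among the BH3-only genes, Bmf (ENSMUSG00000040093, chromosome 2, 118528757 to 118549687), whose protein is held at the cytoskeleton and released by loss of attachment, had 29.4 and 11.7 normalised counts in control and 65.9 and 69.4 in Prmt5sKO libraries. These rest on 26 and 9 reads in control and 89 and 69 in Prmt5sKO cells, the fewest of any member. All Prmt5sKO values were above those of control, and the Prmt5sKO libraries were nearly equal while the controls were 2.52-fold apart. The log2 fold change was 1.79 ± 0.66 (SE), with a 95% interval from 0.19 to 3.39, and 91.9% of all genes tested had a smaller change in either direction. Its unadjusted p in the limma-voom model was 0.0337 and its adjusted p was 0.351, so Bmf did not pass over all genes. The log2 fold change was 2.45 without the deeper and 1.19 without the shallower control library, and 1.83 and 1.75 without the deeper and the shallower Prmt5sKO library. With any of the 4 left out the unadjusted p in limma-voom was above 0.05, at 0.0505 to 0.180.

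Bcl2l11 (ENSMUSG00000027381, chromosome 2, 128126038 to 128162547) encodes Bim, the BH3-only protein that binds all survival members. It had 153 and 227 normalised counts in control and 159 and 212 in Prmt5sKO libraries. The Prmt5sKO values lay within the control range, and the log2 fold change was -0.03 ± 0.36 (SE), with a 95% interval from -0.92 to 0.86 and a limma-voom adjusted p of 0.978. Without the shallower Prmt5sKO library it was -0.22. Bim and Bmf, although of 1 class, therefore had values of unlike size here, 1.79 against -0.03, and the difference between them was not tested.

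Bid (ENSMUSG00000004446, chromosome 6, 120891930 to 120916853) had 797 and 877 normalised counts in control and 760 and 729 in Prmt5sKO libraries. Prmt5sKO was lower by a small margin that was lost under scaling by library size only, and the log2 fold change was -0.16 ± 0.21 (SE), with a 95% interval from -0.67 to 0.35 and a limma-voom adjusted p of 0.748. It lay between -0.25 and -0.09 with 1 library left out in turn. Its exons overlap on the opposite strand with those of Bcl2l13, itself a distant relative, over 17.7% of the exonic bases of Bid, and the strand setting of the counting is not given in the sources used here. Bcl2l13 had a log2 fold change of -0.17 ± 0.25 (SE), with a limma-voom adjusted p of 0.790.

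Bad (ENSMUSG00000024959, chromosome 19, 6941861 to 6951899), which growth factor signals hold inactive, had 353 and 233 normalised counts in control and 270 and 377 in Prmt5sKO libraries. The groups overlapped, and the log2 fold change was 0.12 ± 0.34 (SE), with a 95% interval from -0.70 to 0.94 and a limma-voom adjusted p of 0.894. The change was -0.10 with the shallower Prmt5sKO library left out. Gpr137 on the opposite strand shares 20.5% of its exonic bases.

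Ratios within a library do not depend on the scaling between libraries. The ratio of Bcl2l1 to Bcl2 per kilobase was 19.2 and 17.4 in control and 39.6 and 32.6 in Prmt5sKO cells. The groups did not overlap, and the mean log2 ratio was 0.98 higher in Prmt5sKO, against a pooled SD between libraries of 0.16. The ratio of Bak1 to Bok was 0.48 and 0.74 in control and 1.25 and 0.96 in Prmt5sKO libraries, a log2 difference of 0.88 with a pooled SD of 0.36. Without the shallower Prmt5sKO library the log2 differences were 1.12 and 1.07. Both pairs were chosen after the values of the members were known, and each joins a gene that was higher with one that was lower in Prmt5sKO cells, so that their ratios could not overlap. An exact permutation test of 2 against 2 libraries cannot go below a two-sided p of 0.333, so no p is given for these ratios.

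The ratios of the survival genes to Bim, the partner that all of them bind, were as follows. Mcl1 to Bcl2l11 per kilobase was 29.1 and 20.6 in control and 44.0 and 19.0 in Prmt5sKO libraries. Bcl2l1 to Bcl2l11 was 19.3 and 11.3 in control and 23.2 and 15.8 in Prmt5sKO cells, and the log2 ratio of Bcl2l2 to Bcl2l11 was 2.20 and 2.07 against 2.32 and 2.10. These 3 ratios overlapped between the groups. Bcl2 to Bcl2l11 did not overlap, at 1.01 and 0.65 in control and 0.59 and 0.49 in Prmt5sKO libraries.

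Summed by role, the 4 survival genes reached 1026 and 1037 normalised counts per kilobase in control and 1438 and 1048 in Prmt5sKO cells. Mcl1 made up 54.0% and 56.1% of the survival sum in control and 60.4% and 48.0% in Prmt5sKO, while Bcl2 made up 1.86% and 1.76% in control and 0.80% and 1.23% in Prmt5sKO cells. With the length of the longest transcript the share of Mcl1 was 41.5% and 44.3% in control and 47.8% and 35.9% in Prmt5sKO cells, below that of Bcl2l1 in 2 of the 4 libraries. The 2 effectors summed to 1042 and 697 per kilobase in control and 694 and 735 in Prmt5sKO libraries. Bok was at 67.4% and 57.5% of that sum in control and 44.4% and 51.0% in Prmt5sKO cells. The sum leaves out the effector Bax, a p53 target, at 1436 and 911 per kilobase in control and 976 and 1040 in Prmt5sKO libraries. Bax alone was above the effector sum in every library, so ratios to that sum do not cover all effectors. The 4 BH3-only genes summed to 387 and 369 in control and 352 and 392 in Prmt5sKO libraries. The higher Bmf values did not show in this sum, of which Bmf was at most 3.56%. The BH3-only p53 targets Pmaip1 and Bbc3 are left out of it. Pmaip1 was at 86.0 and 26.6 per kilobase in control and 294 and 192 in Prmt5sKO libraries, and Bbc3 at 71.3 and 47.0 against 65.6 and 112. The sum therefore describes the 4 members and not the whole class. The ratio of the survival sum to the effector sum was 0.99 and 1.49 in control and 2.07 and 1.43 in Prmt5sKO libraries, and that of the survival sum to the BH3-only sum was 2.65 and 2.81 against 4.08 and 2.67. Both ratios overlapped between the groups, but with the length of the longest transcript the survival-to-effector ratio was 1.09 and 1.64 against 2.35 and 1.68 and no longer overlapped.

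**Figure D3:**
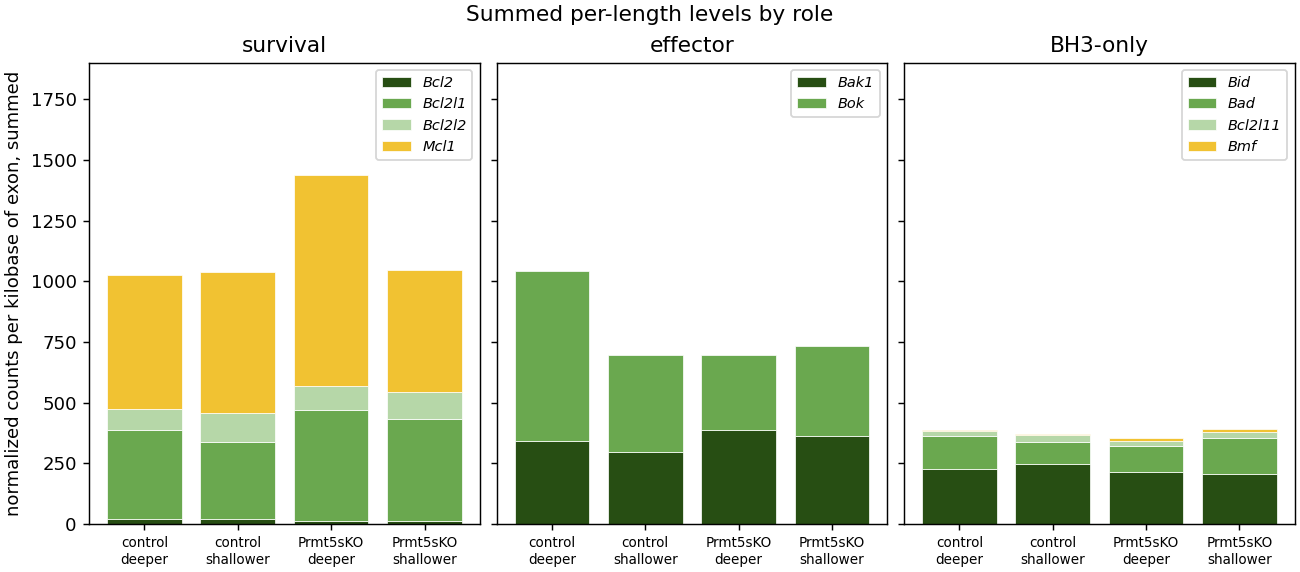
Normalised counts per kilobase of exon in each of the 4 libraries, stacked by member within the survival, effector and BH3-only roles. The survival sum was between 1026 and 1048 in 3 libraries and 1438 in the deeper Prmt5sKO library, and the BH3-only sum was between 352 and 392 in all 4. The p53 targets Bax, Bbc3 and Pmaip1 are not part of these sums.

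Between the Prmt5sKO libraries, over which the muscle differentiation markers summed 12.9-fold higher in the shallower one, the 10 members differed by 1.04-fold for Bid to 1.73-fold for Mcl1. Members whose groups do not overlap are by that choice apt to differ little within a group, and no share of the marker difference in any member was tested.

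Relatives in the family were examined beside the members. Of 15 other family genes 9 had a value and 8 were tested, and 1 passed an unadjusted p under 0.05. Their median log2 fold change was 0.36. The gene that passed was Pmaip1 (Noxa), the BH3-only partner of Mcl1 and a p53 target, with 235 and 72.6 normalised counts in control and 802 and 525 in Prmt5sKO libraries. Its log2 fold change was 2.28 ± 0.55 (SE), with a limma-voom adjusted p of 0.259. Bax and Bbc3, also p53 targets, overlapped between the groups. Bax, the effector related to Bak1, had 2264 and 1436 normalised counts in control and 1538 and 1639 in Prmt5sKO, and Bbc3 (Puma) had 151 and 99.9 against 139 and 238.

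Of 17 genes that act downstream of the mitochondrion, 2 passed an unadjusted p under 0.05, both higher in Prmt5sKO, and the median log2 fold change was 0.06. Dffb, the nuclease that cuts DNA in dying cells, had 81.4 and 88.2 normalised counts in control and 271 and 171 in Prmt5sKO libraries (fitted log2 ratio 1.38 ± 0.44 (SE), limma-voom adjusted p of 0.317). Birc2, an inhibitor of apoptosis, had 258 and 235 against 395 and 383 (fitted log2 ratio 0.66 ± 0.26 (SE), limma-voom adjusted p of 0.377). All 4 Birc2 and Dffb values of Prmt5sKO were above those of control.

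Of the 8 tested genes of the death receptor arm that leads to Bid, 1 passed an unadjusted p under 0.05, and the median log2 fold change was 0.24. Fas, the receptor for Fas ligand and itself a p53 target, had 19.2 and 11.7 normalised counts in control and 216 and 98.6 in Prmt5sKO libraries (fitted log2 ratio 3.27 ± 0.86 (SE), limma-voom adjusted p of 0.276). Both Prmt5sKO values were above both controls.

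Among 22 regulators and partners of the members, the median log2 fold change was 0.01, and 1 gene was higher and 1 lower at an unadjusted p under 0.05. Pim3, a kinase that can phosphorylate Bad, had 2519 and 2091 normalised counts in control and 1094 and 1284 in Prmt5sKO libraries (fitted log2 ratio -0.96 ± 0.22 (SE), limma-voom adjusted p of 0.248). Foxo3, a transcription factor known to act on Bim, had 1315 and 846 against 1757 and 1628 (fitted log2 ratio 0.68 ± 0.27 (SE), limma-voom adjusted p of 0.371). Over all genes 6.01% were higher and 6.95% lower at this threshold. In each list the share of genes that passed, 1 of 8, 2 of 17, 1 of 8 and 2 of 22, was near the background of 13.0%. These counts rest on few genes and moved with single libraries. With 1 library left out, genes at an unadjusted p under 0.05 numbered 1 to 2 among the other family genes, 0 to 4 downstream of the mitochondrion, 1 to 3 in the death receptor arm and 1 to 4 among the regulators, with the highest counts of the last 3 lists without the shallower Prmt5sKO library. Among the other family genes 3 of 8 passed under the block that pairs the deeper libraries.

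**Figure D4:**
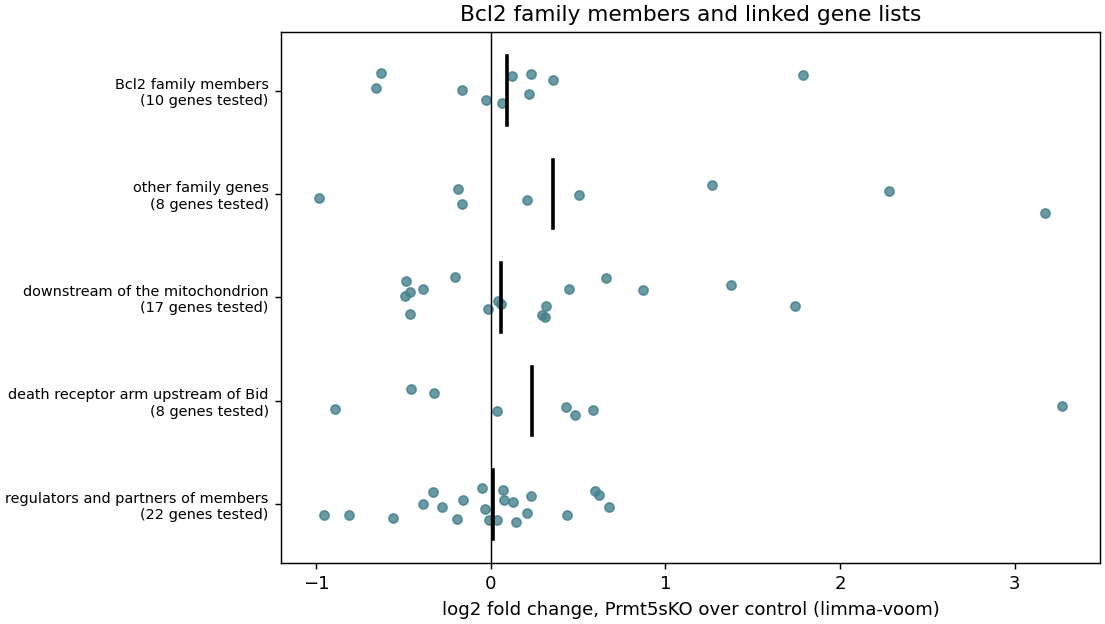
Log2 fold change of the tested genes of the member list and the 4 linked lists, Prmt5sKO over control, with 1 point per gene and a bar at the median. The medians lay between 0.01 and 0.36, and single genes such as Fas at 3.27, Bcl2l15 at 3.18 and Pmaip1 at 2.28 stood far from them. Bcl2l15 had 11.3 and 0 normalised counts in control and 136 and 3.02 in Prmt5sKO, so its value rests on the deeper Prmt5sKO library.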

How the data were processed

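Members and lists were chosen with earlier results of these data known. The authors deposited signal values, which are group means of counts divided by DESeq2 size factors. The authors trimmed reads with Reaper, aligned them with STAR 2.4.0a to GRCm38 and counted them per gene. The deposited log2 fold changes and p-value columns of the authors were not used. Every group mean combines the whole counts of 2 libraries at unlike scale, and solving for them gave the counts per library (largest relative residual 5.4e-15); recovery and test were also checked on simulated data. Counts were scaled by TMM (own code, trims of 30% and 5%); genes with a mean normalised count of at least 5 were compared with limma-voom (limma 3.58.1, R 4.3.3). Lengths are unions of exons in GENCODE M21, in which 19782 of the 20065 identifiers of the series were found. Named genes were all members, genes of each list at an unadjusted p under 0.05 (at most 6, otherwise the most abundant), Bax, Bbc3, Pmaip1, Prmt5 and Xist. Alternatives were 3 scalings, 2 filters, limma-trend, a replicate block and leaving out each library; a crossed block was added later.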

Additional observations from a re-analysis of the deposited data

How the results depend on the processing

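Across 12 alternatives no member reached an adjusted p of at most 0.05, and Bcl2, Bcl2l1, Bak1, Bok, Bid and Bmf kept their direction in all 12. Genes called over all genes numbered 0 under every scaling, filter and limma-trend, 346 under the crossed replicate block and 0 to 489 with 1 library left out (489 without the deeper and 55 without the shallower Prmt5sKO library; a lone library is assumed to vary like the other group). Genes at an unadjusted p under 0.05 numbered 3155 under the crossed block and 658 to 2969 with 1 library left out. Of the members, 0 passed an unadjusted p under 0.05 with the replicate block that pairs the deeper libraries, 2 (Bmf and Bok) under the crossed block, and 0 to 1 with 1 library left out (Mcl1 without the shallower Prmt5sKO library, Bok without the shallower control library). The columns carry no replicate numbers. Differences within the groups correlated at -0.29 across 11487 genes under the first pairing, so the crossed one was added after the data were seen; it joins the libraries with high Xist (8668 in control and 5655 in Prmt5sKO) and so matches the pairs by sex. The causes of these differences were not tested.

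Near 0, signs changed. Bcl2l11 was at 0.081 under library size only. With 1 library left out, Bcl2l11 ranged from -0.34 to 0.25, Bcl2l2 from -0.18 to 0.28, Mcl1 from -0.17 to 0.62 and Bad from -0.15 to 0.42, and Bcl2l2 was at -0.03 and Bad at -0.10 without the shallower Prmt5sKO library; Bcl2l11 was at 0.20 without the deeper one. List medians ranged from -0.0052 to 0.26 for survival genes, -0.45 to 0.031 for effectors, -0.12 to 0.29 for BH3-only genes, -0.012 to 0.47 for other family genes, -0.075 to 0.59 for the death receptor arm and -0.073 to 0.051 for regulators. The median of other family genes was 0.51 with no filter, and that of regulators 0.11 under library size only, which moved the median of all genes from 0.02 to 0.13. Bid overlapped between the groups under library size only, which left 5 members that did not overlap. For the ratios between members, leaving out the shallower Prmt5sKO library was an alternative added after the data were seen. The log2 difference of survival to effectors then went from 0.51 to 0.78, and that of survival to BH3-only from 0.27 to 0.58. With 2 libraries per group such a move cannot exceed the pooled SD, so the SD is no check on it. Length cancels from such differences for pairs of single genes. The ratios themselves moved with the longest transcript, and the mean log2 ratio of Mcl1 to Bcl2l1 went from 0.73 to -0.11 in control and from 0.59 to -0.24 in Prmt5sKO.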
